A study of Mus musculus with 6 samples.

Results

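Hif1a, Arnt, Epor, Hmox1 and Nos2 are genes of the hypoxia response and of proteins tied to it. They were chosen by name through the platform annotation, and each was measured by 1 probe, so they account for 5 of the 223 probes and 5 of the 203 named genes on the array. RNA came from the soleus, a postural calf muscle, of C57Bl/6 mice that the labels describe as controls, numbered 1 to 6, with 3 µg of total RNA from cryosections per array. The labels give no age, sex or treatment, and all 6 titles carry the marks "HUR wt", which the labels do not explain. The 6 arrays form 1 group with no comparison to another, and the labels do not say whether each came from a separate mouse, so the p-values measure only the spread between these samples, which may be technical.

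Cells sense low oxygen through hypoxia-inducible factors. Hif1a encodes the oxygen-regulated alpha subunit and Arnt its constitutive partner, the beta subunit, and the dimer binds DNA at the core motif ACGTG or GCGTG near its target genes. Control of the alpha subunit is mainly at the protein: prolyl hydroxylases mark it in oxygen and the von Hippel-Lindau protein, Vhl, leads it to degradation, so its mRNA does not read out its activity. Epor encodes the erythropoietin receptor, Hmox1 the heme-degrading enzyme heme oxygenase, and Nos2 inducible nitric oxide synthase. Hmox1 and Nos2 are also induced by oxidative stress and by inflammatory signals, and Epor is best known from red cell precursors.

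RefSeq promoters (GRCm38.p6) were at hand for 3 of the 5 genes. They are shown because Hif1a and Arnt encode the factor that reads the core motif, and Epor is a gene that erythroid factors read. Each is the 250 bases before the transcript start, 5′ to 3′ on the gene's strand. In Hif1a and Arnt capitals mark the core motif, on either strand. In Epor they mark AGATAA, a motif of the GATA family of factors, and the Sp1 motif CCGCCC, also searched on both strands.
Hif1a, chr12:73907617-73907866, + strand: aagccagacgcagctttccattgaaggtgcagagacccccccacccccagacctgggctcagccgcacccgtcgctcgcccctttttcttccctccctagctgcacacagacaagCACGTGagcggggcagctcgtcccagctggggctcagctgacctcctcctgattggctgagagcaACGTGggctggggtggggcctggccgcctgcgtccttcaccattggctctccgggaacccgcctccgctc
Arnt, chr3:95434140-95434389, + strand: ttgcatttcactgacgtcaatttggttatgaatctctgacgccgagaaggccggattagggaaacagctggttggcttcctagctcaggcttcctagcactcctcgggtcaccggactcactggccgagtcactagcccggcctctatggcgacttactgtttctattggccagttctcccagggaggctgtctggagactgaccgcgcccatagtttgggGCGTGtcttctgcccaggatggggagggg
Epor, chr9:21963577-21963826, - strand: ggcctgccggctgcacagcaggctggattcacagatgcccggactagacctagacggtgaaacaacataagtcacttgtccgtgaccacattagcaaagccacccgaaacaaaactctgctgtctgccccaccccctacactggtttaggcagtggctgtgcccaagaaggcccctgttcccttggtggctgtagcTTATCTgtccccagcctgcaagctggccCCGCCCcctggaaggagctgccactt
The Hif1a window held ACGTG at 2 places, starting 135 and 70 bases before the transcript start. The first of these is the palindrome CACGTG, where the motif lies on both strands. The Arnt window held GCGTG once, 29 bases before the start. The Epor window held neither core motif, AGATAA on the opposite strand 54 bases before the start and CCGCCC 26 bases before it. Of all 32851 promoter windows of this length, 38.6% held ACGTG or GCGTG, 16.6% ACGTG, 28.2% GCGTG, 9.99% AGATAA and 32.7% CCGCCC. These matches describe the letters of the windows and are no evidence of binding.

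Arnt alone of the 5 genes exceeded the noise bound on every array. The noise bound of an array is the size of its most negative intensity, and a value not above it has no reliable size. With a bound of 2 times that size Arnt was above it on 5 arrays. None of the 5 genes was above that bound on every array, beside 77 of all 223 probes. Hif1a was above the bound on 3 arrays, Nos2 on 4, and Epor and Hmox1 on 5 each. In all, 23 of the 30 values (76.7%) lay above the bound, beside 66.4% of all probe and array values. Detection on every array held for 1 of the 5 genes, beside 47.5% of all probes. By array, 3, 1, 5, 5, 5 and 4 of the 5 genes were above the bound in controls 1 to 6, where the same held for 64.1%, 48.9%, 68.6%, 69.5%, 73.1% and 74.4% of all probes. Control 2, with the fewest of all probes above its bound, also had the fewest of these genes.

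**Figure D1:**
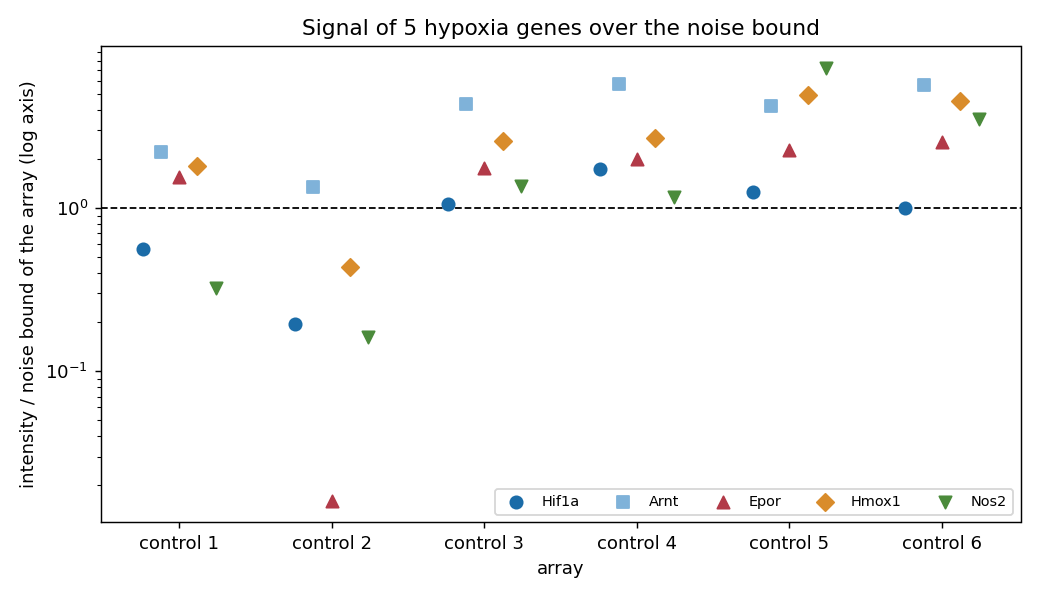
Intensity of each gene divided by the noise bound of the same array (log axis), for controls 1 to 6; each point is 1 probe on 1 array and the dashed line is a ratio of 1. Arnt lies above the line on every array, and in control 2 it is the only one of the 5 above it.

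The arrays differed in brightness and in noise. Median intensities of the fitted genes ran from 0.0143 in control 2 to 0.0593 in control 4, and noise bounds from 0.0018 in control 6 to 0.0087 in control 4. Levels below are log2 intensities minus the array's median log2 intensity, taken over the 152 genes and unnamed probes that were above 0 on every array. On that scale the noise bounds of controls 1 to 6 lay at -2.24, -1.21, -2.87, -2.77, -3.16 and -3.16. The bound of control 2 was therefore the highest relative to the signal of its array. All 7 of the listed muscle fibre markers on the array, Myh7, Myh2, Myh1, Myh4, Mb, Des and Ttn, were above the bound on all 6 arrays. Levels carry the affinity of each probe, so only the order of the arrays within a gene is described. Each array gave 1 value per gene, so neighbours in that order could not be tested against each other.

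The alpha subunit Hif1a lay at the edge of detection. Its intensities in controls 1 to 6 were 0.0019, 0.0012, 0.0035, 0.0152, 0.0029 and 0.0018, which is 0.559, 0.194, 1.06, 1.75, 1.26 and 1.00 times the bound. Controls 3, 4 and 5 were above the bound, control 3 by little, and control 6 was equal to it. The levels had a mean of -2.90 ± 0.54 (SD, n = 6), from -3.57 in control 2 over a median of -2.95 to -1.96 in control 4. Control 4 stood highest with array medians, without centring, after quantile normalization and after cyclic loess normalization. Control 4 was 2.29-fold above control 6 as measured, where the value was equal to the bound, so this is not a lower limit. Control 4 was at least 1.21-fold above control 1, where the value not above the bound was replaced by the bound. Here and below, such lower limits hold for array medians and take the higher value as measured. For Hif1a in control 4 that value was 1.75 times its bound. Against control 2 no fold can be given, because the bound there, at -1.21, lay above the level of Hif1a on every array. Without control 4 the SD was 0.32.

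Its partner Arnt had the smallest SD of the 5 over all 6 arrays. Its intensities in controls 1 to 6 were 0.0075, 0.0083, 0.0143, 0.0504, 0.0097 and 0.0102, between 1.34 times the bound in control 2 and 5.79 times in control 4. Levels ran from -1.10 in control 1 to -0.23 in control 4, a 1.82-fold range, with a median of -0.77 and a mean of -0.77 ± 0.32 (SD, n = 6). Control 4 was again the highest and control 1 the lowest, with all 4 of the scalings named for Hif1a. Without control 4 the SD was 0.20. An SD of 0.32 was larger than that of 13.8% of the 152 genes and unnamed probes, whose median SD was 0.54.

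Both subunits stood highest on the same array, and their ratio can be read within each array, free of any scaling. The log2 ratio of Hif1a to Arnt intensity was -1.98, -2.79, -2.03, -1.73, -1.74 and -2.50 in controls 1 to 6, with an SD of 0.43, a 2.09-fold range. Only its change between arrays can be interpreted, since its size carries the affinity of both probes. It was lowest in controls 2 and 6, on arrays where Hif1a was not above the bound. On the 3 arrays with both probes above the bound it ran over 1.23-fold, with an SD of 0.17. Over all 11476 pairs of fitted genes the median SD of such a ratio was 0.80 (quartiles 0.52 and 1.20), but the SD of 0.43 and the 2.09-fold range of Hif1a to Arnt rest in part on values of Hif1a not above the bound in controls 1, 2 and 6. The 10 pairs among the 5 genes ranged from that 0.43 to 2.19 for Arnt with Epor.

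**Figure D2:**
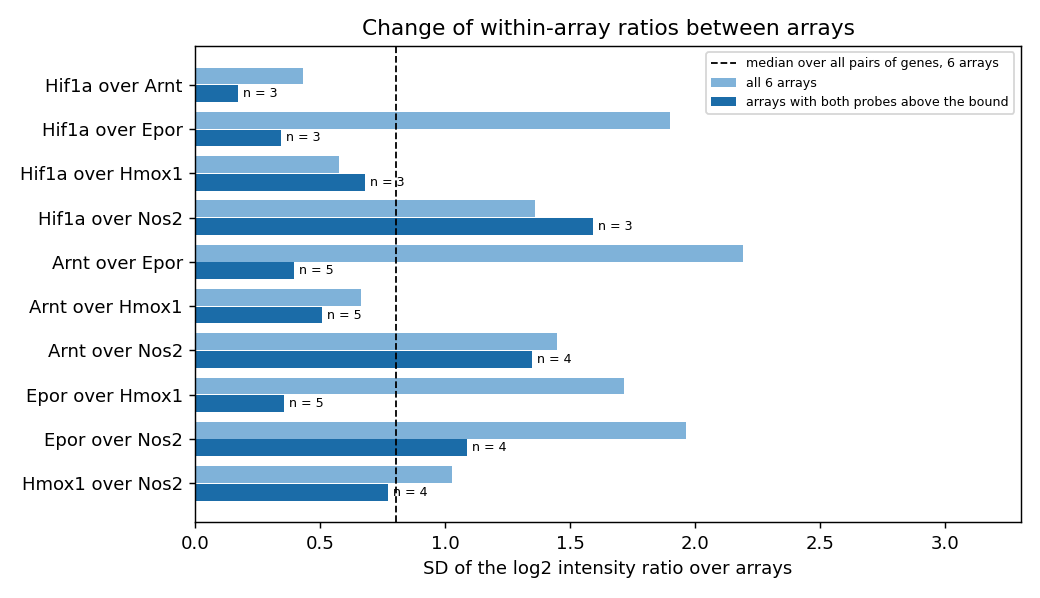
SD over arrays of the log2 intensity ratio for the 10 pairs among the 5 genes, over all 6 arrays (light bars) and over the arrays with both probes above the bound (dark bars, with their number n); the dashed line is the median over all pairs of fitted genes on 6 arrays, 0.80. Pairs with Epor, Nos2 among them, shrink from between 1.71 and 2.19 to between 0.34 and 1.09. Nos2 goes from 1.36 to 1.59 with Hif1a, from 1.45 to 1.34 with Arnt and from 1.03 to 0.77 with Hmox1.

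Epor had the widest spread of the 5, and it rested on 1 value. Its intensities in controls 1 to 6 were 0.0053, 0.0001, 0.0058, 0.0175, 0.0052 and 0.0046. Controls 1, 3, 4, 5 and 6 were 1.56, 1.76, 2.01, 2.26 and 2.56 times their bounds, and control 2 was 0.0161 times its bound. The deposited step is 0.0001, so the value in control 2 is a single step and rounding alone leaves it a 3-fold range. The level there was -7.16, against -2.05 to -1.60 on the other arrays, with a mean of -2.73 ± 2.18 (SD, n = 6) and a median of -1.89. The bound of control 2, at -1.21, lay above the level of Epor on each of the other 5 arrays, so the value does not show a lower level in that sample. On the 5 arrays above the bound, Epor ran over 1.37-fold with an SD of 0.18. Which of the 5 stood highest changed with the scaling: control 1 with array medians, control 6 after quantile normalization and control 4 without centring or after cyclic loess.

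In control 2 the noise bound covered more of the array than Epor. Of the 152 genes and unnamed probes, 19 (12.5%) had levels on the other 5 arrays that all lay under the bound of control 2, and Epor and Hif1a were 2 of these.

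**Figure D3:**
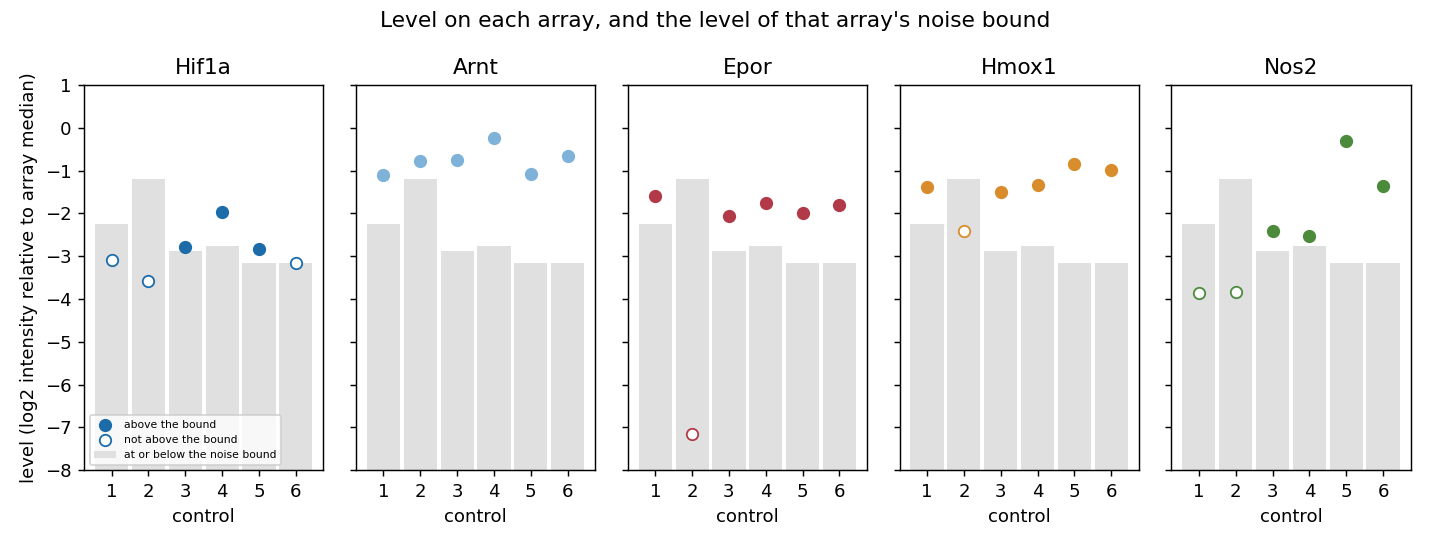
Level of each gene (log2 intensity relative to the array median) in controls 1 to 6, filled where the value was above the noise bound and open where it was not; grey shading reaches up to the level of the noise bound of that array, and the axis begins at -8. The shading of control 2 reaches -1.21, above all points of Hif1a and Epor, and only Arnt stays clear of the shading on every array.

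The stress enzyme Hmox1 was measured above the bound on every array but control 2. Its intensities in controls 1 to 6 were 0.0062, 0.0027, 0.0085, 0.0234, 0.0114 and 0.0081, or 1.82, 0.435, 2.58, 2.69, 4.96 and 4.50 times the bound. Levels ran from -2.40 in control 2 over a median of -1.36 to -0.85 in control 5, with a mean of -1.41 ± 0.55 (SD, n = 6). On the 5 arrays above the bound the range was 1.57-fold and the SD 0.28. Control 5 was at least 1.28-fold above control 2. Control 5 stood highest with array medians and after quantile normalization, control 6 after cyclic loess and control 4 without centring.

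Nos2 spread widely also on the arrays where it was above the bound. Its intensities in controls 1 to 6 were 0.0011, 0.0010, 0.0045, 0.0102, 0.0167 and 0.0063. These were 0.324 and 0.161 times the bound in controls 1 and 2, 1.36 and 1.17 times in controls 3 and 4, and 7.26 and 3.50 times in controls 5 and 6. Nos2 was also the only one of the 5 whose highest deposited intensity was not on control 4, the brightest array. Other genes shared this, such as Pecam1 (0.1573 in control 5 against 0.1308 in control 4), and the share over all probes was not counted. The levels of Nos2 were -3.87, -3.84, -2.42, -2.54, -0.30 and -1.35, with a median of -2.48 and a mean of -2.39 ± 1.40 (SD, n = 6). On the 4 arrays above the bound, control 5 was 4.73-fold above control 4, and the SD was 1.05. Control 5 was at least 3.85-fold above control 1 and at least 1.87-fold above control 2. Control 5 stood highest under all 4 scalings, and control 6 came second in all but the one without centring. On the 3 other arrays above the bound the SD was 0.66 and the range 2.28-fold, so control 5 carried much of the spread.

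Nos2 was not above the bound on the arrays with the fewest probes above it. The number of all probes above the bound was 143 and 109 in those arrays, controls 1 and 2, and 163 and 166 where Nos2 was highest, in controls 5 and 6. The summed intensity of the 5 endothelial markers on the array (Pecam1, Kdr, Tek, Flt1 and Cdh5, of 8 listed) was 5.98 and 9.11 times the array median in controls 1 and 2, 9.12 and 8.06 times in controls 3 and 4, and 13.1 and 9.66 times in controls 5 and 6. From lowest in control 1 to highest in control 5, the sum ranked the arrays as Nos2 did, except that controls 2 and 4 changed places. The order of controls 1 and 2 by Nos2 rests on values not above the bound. The summed markers differed: Kdr had levels of 0.30 and 0.53 in controls 1 and 2 against 0.14 and 0.07 in controls 5 and 6. Tek was at -1.60 in control 1 against -1.93 and -1.90 in controls 5 and 6. Flt1 and Cdh5 were lower in controls 1 and 2 than in controls 5 and 6. Pecam1 was lowest in control 1 and highest in control 5. Of these 5, Tek was not above the bound in control 2, at an intensity of 0.0033, and 4 were above it on all 6 arrays. The summed muscle fibre markers were 244.9 to 544.1 times the array median, lowest in control 5 and highest in control 2, and the adipocyte marker Fabp4 was 3.02 to 10.5 times the median, with the same lowest and highest array. Of the 9 leukocyte markers listed, the array held only Nos2 itself, and of the 7 erythroid markers only Epor. Among leukocyte and cytokine genes picked after their values were seen, Il1b and Csf3r, a cytokine and the neutrophil colony-stimulating factor receptor, were below 0 on all 6 arrays. Csf2rb2, a cytokine receptor subunit, was above the bound on all 6, at levels of -1.24 and -1.05 in controls 1 and 2 and of 0.15 to 1.24 in controls 3 to 6. Csf2ra, another such subunit, was above the bound on 5 arrays and had the opposite pattern between control 1, at 0.08, and controls 3 to 6, at -2.16 to -1.27. Of the same genes, Csf2rb, Il6ra and Btk were above the bound on 4 arrays each, controls 3 to 6, as Nos2 was. The share of all probes with this pattern was not counted, and controls 1 and 2 had the fewest probes above the bound. Il6, Csf3 and Adam8 were above it on 0 arrays. The part of endothelial cells, of leukocytes and of array quality in the Nos2 values was not tested, and in whole muscle more cells of a type and more RNA per cell cannot be told apart.

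None of the 5 genes passed the test for varying more than genes of like intensity. The power of the test at their spreads was not measured. In limma's one-sided F test of each variance against a prior with an intensity trend, with Benjamini-Hochberg adjustment over all 152, the adjusted p was 0.703 for Epor, 0.911 for Nos2, 0.961 for Hmox1, 0.981 for Arnt and 0.988 for Hif1a. Epor alone of the 5 had an unadjusted p under 0.05, at 0.0393 in limma, and without control 2 its SD fell to 0.19 and its adjusted p was 0.995. The test called 2 of 152 (1.32%), and 9 had an unadjusted p under 0.05. Prior SDs at the intensity of each gene were 1.05 for Hif1a, 0.48 for Arnt, 0.99 for Epor, 0.64 for Hmox1 and 0.90 for Nos2, so a dim gene had to spread widely to pass. The SDs of Hif1a, Arnt and Hmox1 lay under their priors and those of Epor and Nos2 above them.

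The wider hypoxia pathway was read from a list of 60 textbook genes, of which 30 had a probe on the array. Of these 30, 15 were above the bound on all 6 arrays, beside 47.5% of all probes. Another 12 were above it on some arrays and 3 on none, beside 47 of all 223 probes on none. Those on none were Vhl, which marks the alpha subunit for degradation, the endothelial nitric oxide synthase Nos3, and the growth factor binding protein Igfbp1. Vhl was below 0 on every array, from -0.0065 in control 4 to -0.0005 in control 6, so it was not above background here and no level can be given. Of the 10 subunits and regulators listed, 3 had a probe named for them: Hif1a, Arnt and Vhl. The responsive genes had a probe for 27 of 50.

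Of the 30, 24 were above 0 on all 6 arrays and entered the test, and 0 passed it, with 2 (Epor and Angpt2) at an unadjusted p under 0.05. This filter left out 6 genes, so these counts do not cover the whole list. The median SD of the 24 was 0.53, beside 0.54 over all 152. The smallest were those of the vascular endothelial growth factor receptor Kdr (0.18), the angiopoietin receptor Tek (0.20) and the glycolytic enzyme Aldoa (0.26). The largest were those of Epor (2.18), Nos2 (1.40) and the urokinase receptor Plaur (1.29), each of which was under the bound on at least 1 array.

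**Figure D4:**
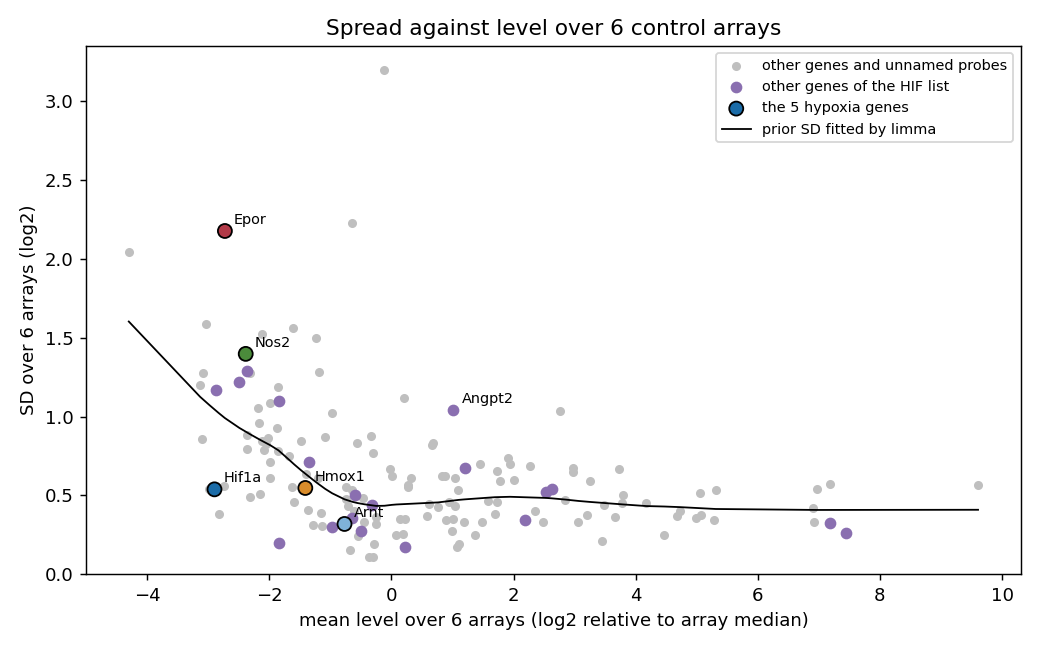
SD over the 6 arrays against mean level (both log2) for the 152 genes and unnamed probes fitted, with the 5 hypoxia genes as large coloured points, the other 19 fitted genes of the list in purple and the prior SD fitted by limma as a line. Epor and Nos2 lie above the line, and Hif1a, Arnt and Hmox1 lie below it.

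Responsive genes of this list that were above the noise bound on every array did not share an order of arrays. Vegfa, the main angiogenic factor under HIF control, had levels from -0.76 in control 6 to -0.01 in control 1 and an SD of 0.28. Slc2a1, a glucose transporter, ran from -1.22 in control 5 to -0.17 in control 1, and Ldha, a lactate dehydrogenase subunit, from -2.19 in control 5 to -0.42 in control 1. Angpt2, an angiopoietin, ran from -0.97 in control 2, near the bound of -1.21 there, to 1.86 in control 5. Of the 19 fitted genes of the list besides the 5, 9 were lowest in control 5, where 38.2% of all 152 were lowest, and 9 were highest in control 1, where 33.6% were. Hif1a and Arnt were highest in control 4, as were 11.8% of the 152, and Hmox1 and Nos2 in control 5, as were 14.5%. These genes were named after their values were seen, apart from those with the largest and smallest SD.

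The genes with the profiles most like each of the 5 were sought among those above the bound on all 6 arrays. Likeness was the root mean square difference over the 6 arrays between both centred log2 profiles, each with its own mean taken off. For Arnt these were the retinoblastoma gene Rb1 (0.13), the laminin chain Lamb2 (0.15) and Aldoa (0.21), beside a median of 0.50 over 99 genes. For Hmox1 they were Igfbp6 (0.21), Efnb1 (0.32) and Itgb5 (0.33), and for Hif1a Itgb5 (0.33), Ppara (0.33) and Cdh5 (0.34), with medians of 0.74 and 0.67 over 100 genes. For Nos2 they were Csf2rb2 (0.58), Ang (0.71) and Cdk4 (0.77), beside a median of 1.53. For Epor they were Angpt2 (1.19), Igfbp6 (1.64) and Csf2rb2 (1.70), beside 2.12. The profiles of Epor, Hmox1, Nos2 and Hif1a include values not above the bound, so their likeness rests in part on background. That of Arnt includes none, though its value in control 2 was only 1.34 times the bound.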

How the data were processed

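The authors deposited 1 linear intensity per probe for 223 probes on 6 arrays. How the arrays were scanned, corrected and scaled is not given in the sources used here; values below 0 occur on every array, and array medians differ. Platform annotation gave 205 probes a single gene, 0 several and 18 none; all 5 members matched the RefSeq table, and 0 symbols changed.

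Probes above 0 on all 6 arrays were kept. After log2, probes of a gene were averaged and each array was centred on its median. Spread was tested in R 4.3.3 by limma 3.58.1, with statmod 1.5.0, from an intercept per gene. The test used a robust prior variance with an intensity trend (6.12 prior degrees of freedom), a one-sided F test and a threshold of 0.05. It was tried on simulated data, but its power at the spreads of the members was not measured. Named by rule were the members, the measured subunits and regulators of the list, its 3 largest and 3 smallest SDs, the 3 most alike genes per member and muscle markers. Members and lists were chosen with earlier results of these data known. Alternatives covered scaling, filter, prior, noise bound and each replicate left out. Arrays give no counts, and their number limits the precision.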

Additional observations from a re-analysis of the deposited data

Results flagged for a closer look

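The level of Epor in the 6 control arrays was set apart by 1 sample. The gap between control 2 (-7.16) and the nearest other array, divided by the whole range, was 0.919, above the critical value of Dixon's test for 6 samples. The value in control 2 was under the noise bound of its array. Chance passes about 1 in 20 groups; of the 152 genes and unnamed probes 19 (12.5%) passed, and of the 24 fitted genes of the hypoxia list Epor was the only 1. The gap for Hmox1 was 0.580, for Hif1a 0.509, for Arnt 0.484 and for Nos2 0.294.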

How the results depend on the processing

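For the 5 genes the test for excess spread stayed short of the threshold in all 66 alternatives, with adjusted p in limma from 0.436 (Epor) to 0.999. The count of genes past it over the whole array, 2, was 0 with the noise-bound filter, after quantile or cyclic loess normalization, without robust weights or without the intensity trend, 1 with the looser filter, 3 with values raised to the noise bound, and 0 to 2 with each replicate left out in turn; 0 was without control 2. Mean levels of Hif1a, Arnt, Epor, Hmox1 and Nos2 were -8.41, -6.29, -8.24, -6.93 and -7.90 without centring, where they are plain log2 intensities, and -1.17, 0.42, -0.54, -0.019 and -0.48 with values raised to the noise bound, where the array median covers all probes. The level of Arnt was -0.36 with the looser filter and -1.86 with the noise-bound filter, for both of which the array median covers other genes. With each replicate left out it ran from -0.88 to -0.42, and that of Hmox1 from -1.52 to -0.86, the upper ends without control 2, which also moved that of Epor from -2.73 to -1.49. The median SD of the hypoxia list was 0.98 without centring, beside 0.94 over all 152.

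With a bound of 2 times the most negative intensity, 14 of the 30 values were detected. The share of all probe and array values above that bound was not counted. Hif1a was detected on 0 arrays, Nos2 on 2, Epor on 3, Hmox1 on 4 and Arnt on 5. Thus none of the 5 genes was detected on every array, while 77 of all 223 probes were. With every value above 0 counted, Hif1a was detected on 6. Leaving out replicates in the count of detected values, and arrays among those above the bound, was added after the data were seen. No paired analysis was possible because the labels give 1 group. Signal over background limits Hif1a, Epor and Nos2 most.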
